A study of Vitis vinifera with 2 samples.

Results

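In wounded grape (Vitis vinifera) tissue, 107 genes stood at 4 times their control level or more, on a scale with a pseudocount, after treatment with the yeast Yarrowia lipolytica, while neither adjacent measured gene on the sequence was 2-fold higher. They were chosen by measured values among 28823 genes that carry a number as their name, written as LOC and digits. A gene counted as measured when its FPKM (fragments per kilobase of transcript, scaled by library size) reached 1 in at least 1 library, and 14729 genes passed. Ratios below are log2 values of treated over control FPKM, with 1 added to each. Each chosen gene had a ratio of at least 2, a treated FPKM of at least 10, and no adjacent measured gene, in order of start position, with a ratio of 1 or more, called past 2-fold below. These values chose the genes, so the levels and ratios below describe them and test nothing.

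The study has 2 RNA libraries of wound tissue, 1 from wounds given 10 µL of a yeast suspension and 1 from wounds given as much sterile water. Tissue was taken after 3 days at 20 °C in both cases. Because the yeast appears under strain for the water library too, grouping rests on the sample titles. The cultivar, the number of berries and the number of wounds behind each library are not stated, and each group has n = 1. No p-value is given, no difference has a replicate check, and brackets after a fold hold 95% intervals that cover counting error only. Depth was 19010746 fragment equivalents, of 300 aligned bases each, in the control against 20540965 with the yeast. Too few genes carry symbols to check the tissue by marker genes. In such bulk tissue, more cells of a type and more RNA per cell cannot be told apart.

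Plant genomes hold many tandem arrays, in which copies of a gene lie side by side and are often switched on together. The stilbene synthases of grape, which make resveratrol-type defence compounds, are a known array of this kind. Reads from near-identical copies are hard to assign to 1 of them, and copies elsewhere in the genome can share reads in the same way, which was not tested here. The files and the reference table give these numbered genes no product names, so the function of nearly all of them is not stated here.

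Of the 14729 measured genes, 859 (5.83%) had a ratio of 1 or more, 279 (1.89%) a ratio of 2 or more, and 243 (1.65%) a ratio of 2 or more together with at least 10 FPKM after treatment. These last are called strongly higher below. The 107 genes are 44.0% of these 243, and the other 136 had at least 1 adjacent gene past 2-fold. Among all measured genes, 90.0% had no adjacent gene past 2-fold. The median ratio of all measured genes was -0.28, and 506 genes (3.44%) were lower with a ratio of -1 or less. Of the genes with a ratio past 1 in size, 62.9% were higher. With the libraries scaled so that the median became 0, that share was 84.2%. Together the 107 genes summed to 3070 FPKM with water and 16869 FPKM with the yeast, or 0.397% and 2.23% of all FPKM. The 136 genes with higher neighbours held 3904 and 26960 FPKM.

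**Figure D1:**
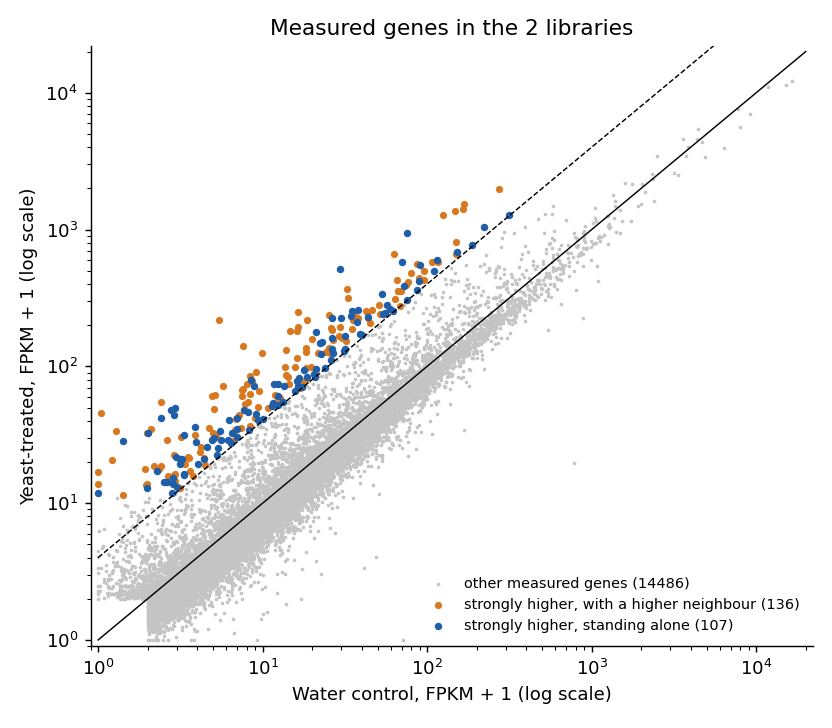
FPKM + 1 of each measured gene in the water control (x axis, log scale) and the yeast-treated library (y axis, log scale), 1 point per gene; the solid line marks equal values and the dashed line 4-fold. The 107 genes standing alone (blue) reach from near 0 to 312 FPKM in the control and lie among the 136 genes with a higher neighbour (orange).

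Most of these genes were already transcribed in the water control. Control FPKM ran from 0 to 312 with a median of 11.4, and treated FPKM from 10.9 to 1277 with a median of 70.4. In the control, 3 genes lay under 1 FPKM, 30 from 1 to 5, 32 from 5 to 20, 36 from 20 to 100, and 6 at 100 or more. The median control FPKM of all measured genes was 10.5, close to that of the 107. The 107 also had to reach 10 FPKM after treatment, and all measured genes that did so had a control median of 31.3 FPKM. Near 0, taken as under 0.5 FPKM in the control, stood 2 of the 107 genes (1.87%), 6 of the 136 with higher neighbours (4.41%) and 129 of all measured genes (0.876%). Of the 6992 measured genes at 10 FPKM or more after treatment, 8 (0.114%) stood near 0 in the control. A gene with both levels always has a ratio above 2, so these 8 are the same 2 and 6 genes. The higher shares among strongly higher genes thus follow from the choice. The median ratio of the 107 was 2.38, and 65 of them lay under 2.5, whereas 16 reached 3 and 6 reached 4. Without the pseudocount, the fold was under 5 in 34 genes, 5 to 10 in 58 and at least 10 in 14. For 93 of 106 genes with reads in both libraries, the counting interval of the fold lay above 4. The choice itself required a fold above 4, so this count describes counting error and tests nothing.

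**Figure D2:**
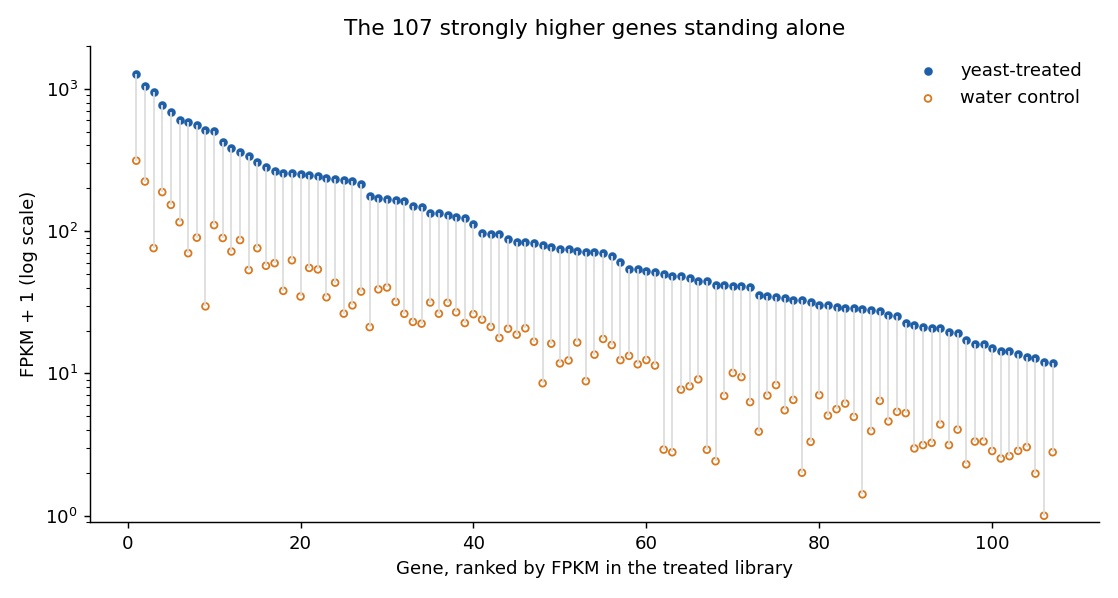
FPKM + 1 (y axis, log scale) of the 107 genes standing alone, ranked by their FPKM in the treated library (x axis), with 1 filled point for the treated and 1 open point for the control library per gene. Control levels fall along with treated levels, from 312 FPKM for the first gene to 0 for the gene with the second-lowest treated level.

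The most abundant of them, LOC100249279 (chromosome 11, 489270 to 494415, plus strand), stood at 312 FPKM with water and 1277 FPKM with the yeast. In the pairs of values that follow, the control comes first, and positions are those of the files, whose genome build is not named. The difference is 4.10-fold (4.03 to 4.17) and rests on 17457 and 76765 fragment equivalents. Its main transcript has 14 exons, and its adjacent genes were nearly level, with 56.3 and 47.2 FPKM for LOC100259495 and 7.89 and 7.02 FPKM for LOC100254319. Both of its abundant transcripts were higher, at 206 and 869 FPKM and at 87.3 and 373 FPKM. Its other 2 transcripts were minor, at 15.6 and 29.1 FPKM and at 2.69 and 5.63 FPKM.

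LOC100854891 (chromosome 3, 7287358 to 7287908, plus strand) had 222 and 1038 FPKM, a 4.68-fold difference (4.48 to 4.89). The gene has 1 exon of 551 bases, and the next measured gene, LOC100259962, starts 3902 bases further on and stood at 12.4 and 15.9 FPKM. LOC100267215 (chromosome 11, 14090281 to 14092234, minus strand) had 187 and 766 FPKM, a 4.09-fold difference (3.99 to 4.21). The adjacent gene LOC100246661 ends 120 bases before it and stood at 6.42 and 3.94 FPKM. With unnamed assembled loci and genes with symbols counted as neighbours, LOC100267215 no longer stood alone, because a locus at 0 and 2.11 FPKM lay next to it. Nor did LOC100250774 on chromosome 5, at 30.5 and 134 FPKM, beside an entry without a gene name at 19.1 and 60.4 FPKM. Whether that entry is a separate locus was not tested.

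LOC104879582 combined a high level with a large ratio. It stood at 74.9 and 943 FPKM, 12.6-fold higher (11.8 to 13.4), on chromosome 6 (2429825 to 2443847, minus strand). Its value is summed over 3 assembled loci and 7 transcripts. Those at 1 FPKM or more in either library were each past 2-fold, and the largest went from 26.4 to 242 FPKM. The deposited gene table, which has its own unexplained scale, gave it a log2 ratio of 3.20 against 3.64 from the transcripts.

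LOC100254380 (chromosome 14, 28010258 to 28013421, plus strand) had the largest ratio among the 12 most abundant genes. It stood at 28.6 and 515 FPKM, 18.03-fold higher (16.99 to 19.15), on 1142 and 22086 fragment equivalents. Its main transcript has 10 exons. Of its adjacent genes, LOC100267985 had 11.998 and 11.5 FPKM and LOC100249281 had 15.1 and 10.4 FPKM.

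The remaining genes among the 12 most abundant differed 4.51-fold to 8.40-fold. LOC100244332 on chromosome 2 stood at 68.9 and 579 FPKM, 8.40-fold higher (8.03 to 8.80), from 1 exon of 1547 bases. LOC100241377 on chromosome 8 stood at 88.9 and 554 FPKM, 6.23-fold higher (6.03 to 6.44). LOC100249166 on chromosome 4 stood at 70.9 and 383 FPKM, a 5.40-fold difference (5.20 to 5.61). LOC100255703 on chromosome 15 had 114 and 600.05 FPKM, a 5.24-fold difference (5.08 to 5.42). The intervals of these last 2 overlap, whereas those of LOC100244332 and LOC100241377 meet neither those nor each other. LOC100245852 on chromosome 5 stood at 88.4 and 419 FPKM, LOC100247429 on chromosome 11 at 109 and 501 FPKM, and LOC100262839 on chromosome 14 at 152 and 686 FPKM. These 3 had folds of 4.74, 4.59 and 4.51, with counting intervals that overlap each other.

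The highest ratio of the 107 was that of LOC100853047 on chromosome 19, at 0.414 and 27.3 FPKM. Its control value rests on 7.57 fragment equivalents, and the fold of 65.9 has an interval of 33.2 to 154. The value is uncertain, since its span of 12760456 to 12832350 holds or overlaps very abundant genes, LOC100232878 at 773 and 633 FPKM and LOC100260702 at 619 and 523 FPKM. The authors' deposited table lists LOC100853047 at 967 and 804, a log2 ratio of -0.26, which is the opposite direction. Nearly the whole difference lies in 1 assembled transcript, at 0 and 26.04 FPKM, while the annotated transcript stood at 0.414 and 1.24 FPKM.

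LOC100255087 on chromosome 18 (27385443 to 27387115, minus strand) was listed at 0 with water and had 10.97 FPKM with the yeast. The treated value rests on 259 fragment equivalents over 4 exons. Against the 0.136 FPKM that 3 fragments would give a transcript of its length in the control, it was at least 80.5-fold higher. It is the single gene of the 107 at or under 3 fragment equivalents in the control. LOC100256330, which the reference table annotates as a pseudogene, stood just under 1 FPKM in the control, at 0.977 and 11.9 FPKM.

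Other genes with a ratio near or above 4 had measurable control levels. LOC100262970 on chromosome 5 stood at 1.42 and 40.9 FPKM, 28.9-fold higher (21.3 to 40.1). LOC100243331 on chromosome 6 stood at 1.79 and 47.4 FPKM, 26.4-fold higher (19.3 to 37.2). LOC100853379 on chromosome 11 stood at 1.91 and 48.6 FPKM, 25.4-fold higher (18.1 to 36.7). Their control values rest on 35.1 to 43.3 fragment equivalents, and the 3 intervals overlap, so their order is not resolved at this depth. LOC100259478, on a short sequence not placed on a chromosome, stood at 1.91 and 43.4 FPKM, 22.7-fold higher (15.96 to 33.5). LOC100247056 on chromosome 3 stood at 1.01 and 31.6 FPKM, 31.5-fold higher (21.7 to 47.3), though its fold in aligned bases was 25.4.

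Ratios between 3 and 4 included genes on several chromosomes. LOC100244898 on chromosome 8 stood at 2.31 and 30.6 FPKM, 13.2-fold higher (9.99 to 17.9). LOC100261179 on chromosome 11 stood at 2.90 and 34.8 FPKM, 11.99-fold higher (9.77 to 14.9). LOC100248570 on chromosome 3 stood at 7.53 and 78.7 FPKM, 10.4-fold higher (8.99 to 12.2). All 3 intervals overlap, but the authors' deposited table lists LOC100248570 at 91.9 and 419, a log2 ratio of 2.18 against 3.22 from the transcripts. LOC100243037 on chromosome 12 stood at 20.1 and 176 FPKM, 8.75-fold higher (7.76 to 9.90), but its span overlaps both adjacent genes and the deposited table gave it a log2 ratio of 1.05.

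Genes whose main transcript has 1 exon made up 30 of the 107 (28.04%), against 24 of the 136 with higher neighbours (17.6%) and 1886 of all measured genes (12.8%). The main transcript was the one with the highest FPKM summed over both libraries, so in strongly higher genes the treated library weighs most. Genes with 2 exons went the other way, at 14 of 107 (13.1%), 46 of 136 (33.8%) and 14.1% of all measured genes. At 10 exons or more stood 11 of 107 (10.3%), 6 of 136 (4.41%) and 21.2% of all. The median was 3 exons for the 107, 2 for the genes with higher neighbours and 5 for all measured genes. Counted by the transcript with the most exons instead, 22.4% of the 107 had 1 exon. That count was not made for the other sets, so it has no like comparison. Exon number took no part in choosing the genes, yet genes of 1 family share it and are not independent of each other, so no test was made.

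**Figure D3:**
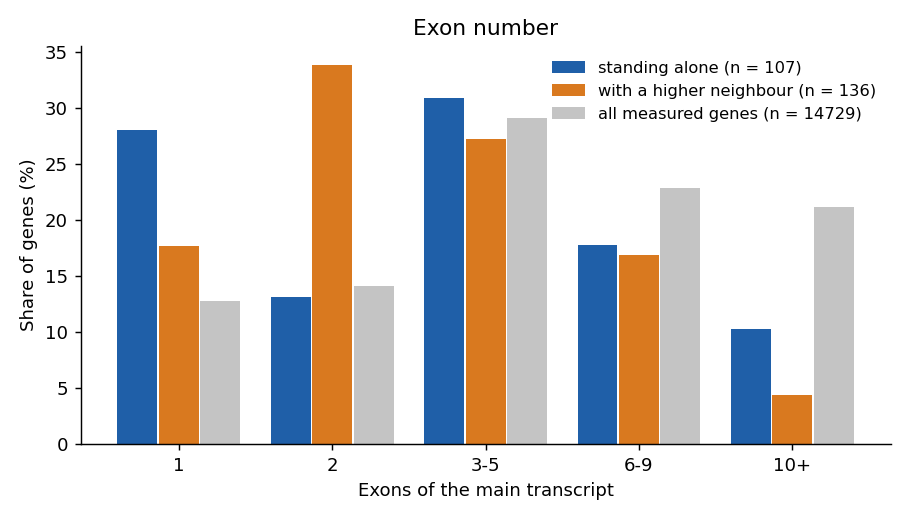
Share of genes in percent (y axis) by the number of exons of the main transcript (x axis), for the 107 genes standing alone, the 136 strongly higher genes with a higher neighbour and the 14729 measured genes. Genes of 1 exon are 28.04%, 17.6% and 12.8% of the 3 sets, and genes of 2 exons 13.1%, 33.8% and 14.1%.

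Read by exon class, 55.6% of the 54 strongly higher genes with 1 exon stood alone. Of the 60 with 2 exons 23.3% stood alone, and of the 70 with 3 to 5 exons 47.1%. Genes of 1 array can share both exon number and a higher neighbour, so these shares are a description. Among all measured genes the share without a higher neighbour varied little, from 87.9% for 2 exons to 91.5% for 10 or more.

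The 1-exon genes standing alone resembled the rest of the 107 in level, with a median of 13.1 FPKM in the control and 72.1 FPKM treated, against 11.4 and 69.5 FPKM for the 77 others. Their transcripts were 551 to 3124 bases long. LOC109123025 on chromosome 8, not matched in the reference table, stood at 85.5 and 359 FPKM, 4.20-fold higher (3.99 to 4.43). LOC100248930 (chromosome 15, 16195833 to 16196614, minus strand) carries the synonym BAP1 and is the 1 gene of the 107 with a synonym. It stood at 56.1 and 281 FPKM, and its nearest adjacent gene LOC100267692, 5656 bases away, at 4.25 and 3.29 FPKM. LOC100232922 on chromosome 18 stood at 37.04 and 256 FPKM, 6.90-fold higher (6.47 to 7.36).

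At the other end, LOC100249166 has the most exons, 20, in a transcript of 2298 bases. LOC100250185 on chromosome 12 and LOC100242786 on chromosome 11 have 16 exons each. They lay near the lower limit of level, LOC100250185 at 1.62 and 13.4 FPKM, 8.25-fold higher (6.43 to 10.7), and LOC100242786 at 1.80 and 10.9 FPKM, 6.07-fold higher (5.02 to 7.40). LOC100267452 on chromosome 7, with 13 exons, stood at 52.8 and 242 FPKM, 4.58-fold higher (4.44 to 4.73).

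In the reference table, 101 of the 107 are protein-coding, 3 are pseudogenes and 3 were not matched. More than 1 measured transcript was found in 29 of them, with 76 measured transcripts, of which 66 were at least 2-fold higher and 1 was 2-fold lower. In 21 of the 29, each measured transcript was higher. The choice required the summed value to be higher, so these counts describe the genes and test nothing. They were not made for the other sets. The lower transcript belongs to LOC100251039 on chromosome 12, where a 2-exon assembled form stood at 2.86 and 0.263 FPKM and the 1-exon annotated form at 0.0698 and 26.8 FPKM. In LOC100245371 on chromosome 18, the annotated transcript of 2031 bases was nearly level at 15.4 and 18.1 FPKM, while the assembled 10-exon form went from 7.40 to 59.6 FPKM. The labels do not describe how reads were shared out between transcripts.

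All 19 chromosomes held at least 2 of the 107 genes, and 11 genes lay on short sequences not placed on a chromosome. Chromosome numbers were read from the chromosome to which the reference table assigns most of a sequence's genes. Chromosome 11 held the most, 11 genes, or 16.8 per 1000 measured genes against 7.11 over all chromosomes. On chromosomes 11 and 8, all strongly higher genes stood alone, 11 of 11 and 7 of 7. Chromosome 16, which carries the stilbene synthase array, was the opposite: 2 of its 31 strongly higher genes stood alone. Those 2 were LOC100244240 (5134834 to 5142601) at 15.7 and 81.2 FPKM and LOC100262077 (12106423 to 12109257) at 10.6 and 53.2 FPKM. On chromosome 18, 9 of 29 stood alone.

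**Figure D4:**
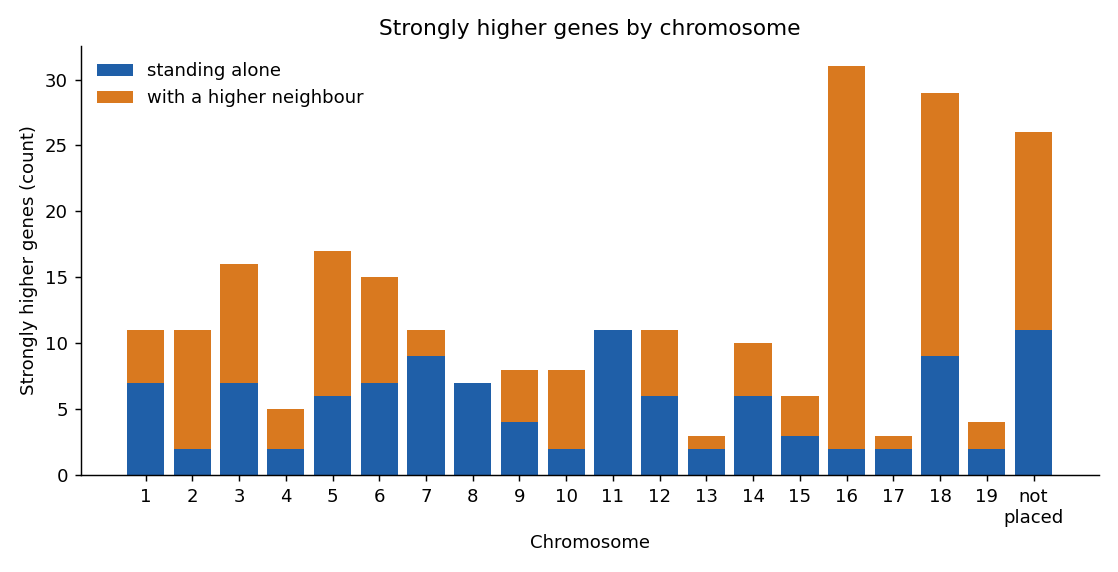
Number of strongly higher genes (y axis, count) on each chromosome and on sequences not placed on one (x axis), split into genes standing alone (blue) and genes with a higher neighbour (orange). Chromosomes 8 and 11 hold 7 and 11 genes, all standing alone, whereas 29 of 31 on chromosome 16 have a higher neighbour.

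The 11 genes of chromosome 11 were unevenly placed: between LOC100853379 and LOC100251539, 309 measured genes further on, lay 9939438 bases with none of the 107, while 3 pairs of consecutive members were 8 measured genes apart. Besides LOC100249279, LOC100267215, LOC100247429, LOC100853379 and LOC100261179, they include LOC100251539 at 29.1 and 223 FPKM, 7.68-fold higher (7.21 to 8.19), and LOC100254698 at 42.4 and 230 FPKM, 5.41-fold higher (5.14 to 5.70). LOC100251539 lies at 12503274 to 12505283 and LOC100254698 at 18816728 to 18820414, with LOC100241119 following 137300 bases after it at 15.5 and 71.2 FPKM. The 7 genes of chromosome 8 ranged from LOC100262335 at 2.14 and 20.2 FPKM to LOC100241377. LOC100266594 on chromosome 8 stood at 54.1 and 246 FPKM, 4.55-fold higher (4.31 to 4.81).

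Adjacent measured genes, counted once for each of the 107 they adjoin and 194 in all, had a median ratio of -0.24. LOC109121673, between LOC100260914 and LOC100852809, is thus counted for both. Among adjacent genes of all measured genes, leaving out those past 2-fold as the choice did here, the median was -0.31. Of the 194, 132 (68.0%) lay below 0, against 79.4% in that wider set, and 7 (3.61%) were at least 2-fold lower, against 3.68%. Ratios from 0.5 to 1 were found in 14.4% of these adjacent genes. In the wider set the same share was 4.90%. Beside the strongly higher genes with a higher neighbour, 58 adjacent genes, counted in the same way, were not past 2-fold. Of these 58, 15.5% had ratios from 0.5 to 1 and 72.4% lay below 0. The raised share from 0.5 to 1 was thus not particular to the 107. With the limit for a higher neighbour lowered to a ratio of 0.5, 83 of the 107 still stood alone. Counting 2 measured genes on each side, 97 did.

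**Figure D5:**
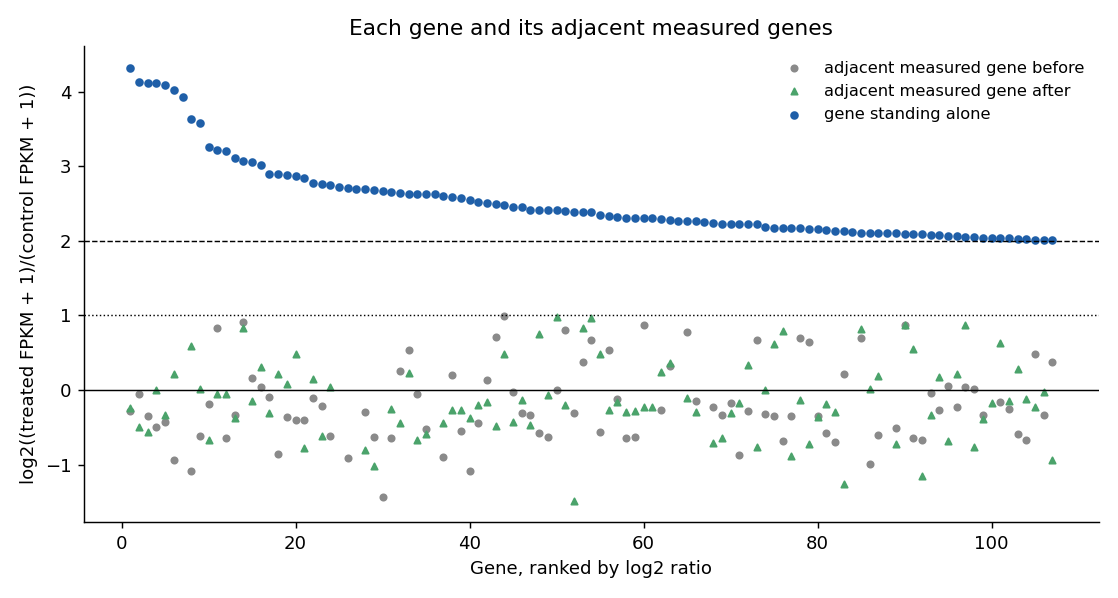
log2 ratio of treated to control FPKM with a pseudocount of 1 (y axis) for each of the 107 genes standing alone (blue), ranked by that ratio (x axis), and for the adjacent measured gene before (grey) and after (green) it. By construction blue points lie above 2 and the others below 1; the adjacent genes have a median of -0.24.

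Distances to adjacent genes were long and overlaps few beside the other strongly higher genes. The nearer adjacent gene began or ended a median of 4201 bases away, against 1971 bases for all measured genes, while most of the 136 overlapped an adjacent gene. Spans overlapped an adjacent gene in 8 of the 99 genes that had one (8.08%), in 94 of 136 genes with higher neighbours (69.1%) and in 8.53% of all measured genes with an adjacent one. Several assembled loci shared the gene name in 7.48% of the 107, 27.2% of the 136 and 4.54% of all measured genes. Several transcripts did so in 32.7%, 55.9% and 47.5%. By the choice, no gene of the 107 could overlap an adjacent gene past 2-fold. How far merged loci and the choice account for the difference in overlap was not tested. Among the genes with a measured gene on both sides, the nearer one lay farthest from LOC100250185, at 267455 bases, followed by LOC100252791 on chromosome 5 with 63107 bases. LOC100252791 stood at 6.70 and 47.1 FPKM, 7.03-fold higher (5.62 to 8.87). LOC100241045 on chromosome 3 followed with 44515 bases, at 52.2 and 335 FPKM, 6.43-fold higher (6.08 to 6.79).

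Some of the 107 lay close to each other. LOC100260914 and LOC100852809 on chromosome 18 overlap each other and have between them, in order of start, LOC109121673 at 22.3 and 41.5 FPKM, a ratio of 0.87 just short of the limit. LOC100260914 stood at 7.28 and 33.3 FPKM and LOC100852809 at 5.42 and 26.4 FPKM. The authors' deposited table lists the same values for both, 28.8 and 130, and the span of LOC109121673 overlaps each of them. The spans of LOC100260914 and LOC100852809 overlap, so their values are not independent and they do not stand alone in any strict sense. Of 77 pairs of consecutive members on a chromosome, 4 were at most 5 measured genes apart, and the median was 62.

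A measured gene lay on both sides of 95 of the 107, while 8 had no adjacent measured gene at all and 4 had one on a single side. The reference table, made for another assembly, gives an order that the choice did not use. It held 104 of the 107 genes, and 96 of them also stood alone there. The ratios were the same, and many placed genes had the same adjacent genes in both orders, LOC100254380 for example. For such genes the choice fixed the outcome, so the 96 are no independent check. Of the 11 genes on unplaced sequences 10 were matched, and 5 of these had a higher neighbour in that order.

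In the reference order, 4 of those 5 fell into 1 stretch of chromosome 18. LOC100855027, at 4.51 and 32.9 FPKM, was directly followed by LOC100254170, at 21.4 and 147 FPKM. LOC100855074, at 22.0 and 149 FPKM, was directly followed by LOC100853424, at 1.86 and 12.7 FPKM. The stretch, picked out after its values were seen, held 21 consecutive measured genes, each with a ratio of 1 or more and all 21 on sequences unplaced in the files. Of the 21, 17 had a ratio of 2 or more, and 12 were among the 136 genes with a higher neighbour. Summed over the 21, FPKM was 156 with water and 1170 with the yeast, a 7.49-fold difference. In the files none of these 4 genes had an adjacent measured gene on its own sequence. With unnamed loci counted, LOC100254170 had a higher neighbour at 0.884 and 20.04 FPKM. That entry holds transcripts without a gene name from the same assembled locus as LOC100254170, so it is not a separate locus.

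The other 4 genes with a higher neighbour in the reference order were LOC100247056, LOC100248570, LOC100257784 and LOC100854531. LOC100247056 was next to LOC100257314 there, which stood at 0.296 and 9.96 FPKM. LOC100257784 on chromosome 7, at 17.7 and 82.9 FPKM, had a neighbour with a ratio of 1.87, and LOC100248570 one with 1.33. For LOC100854531, at 8.42 and 39.9 FPKM, the neighbour's ratio of 1.004 barely passed the limit.

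Genes near the limits had these values. Just inside the ratio of 2 were LOC100261754 at 74.8 and 305 FPKM, LOC100267987 at 19.8 and 82.7 FPKM and LOC100256072 at 16.5 and 69.5 FPKM, all with a ratio of 2.01. Just outside were LOC104880614 at 8.71 and 37.3 FPKM, LOC100240765 at 4.36 and 20.05 FPKM and LOC100267532 at 8.33 and 35.6 FPKM, with ratios of 1.97 to 1.98. By treated level, LOC100242786, LOC100255087 and LOC100256330 lay just inside 10 FPKM. LOC100257314 at 9.96 FPKM, LOC100251455 at 9.40 FPKM and LOC104877604 at 9.16 FPKM lay just outside. By neighbour ratio, the nearest inside were LOC100249138 with 0.997, LOC100254698 with 0.984 and LOC100254462 with 0.959, and the nearest outside LOC100265886 with 1.08, LOC100243717 with 1.09 and LOC100248102 with 1.11. The neighbour that almost removed LOC100254698, LOC100265063, stood at 1.01 and 2.98 FPKM.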

How the data were processed

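Per the submitters' processing notes, HISAT2 and HTSeq 0.6.1 were used, with no roles given; the build and annotation are not given in the sources used here. Per the file headers, the authors deposited for each library 53908 transcript models with exon number, length, FPKM, and mean coverage as a raw signal. A deposited gene table, labelled FPKM, was treated as a score because its values are not the FPKM of its genes.

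FPKM was summed per gene name with pandas 2.3.3 and numpy 2.4.6 in Python 3.11.15. Genes reaching an FPKM of 1 in at least 1 library counted as measured. Coverage times length gave aligned bases, and 300 bases were taken as 1 fragment equivalent. That size is an inference: of 2128 low transcripts, 36.5% lay within 1 base of a multiple of 300. Intervals of folds are exact binomial on rounded fragment equivalents (scipy 1.17.1), carried to the FPKM ratio. The floor is 3 fragments, which in 1 kb of transcript gives 0.152 FPKM for the control and 0.142 FPKM with the yeast. The scripts were tested on simulated data.

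Named genes are the 12 highest by treated FPKM and the 12 by ratio, those near 0, extremes of exon number and distance, those with a synonym and those at each limit. Genes outside it were named after their values were seen. The members, lists and rule were chosen with earlier results of these data known. Product classes and promoter motifs could not be examined, since no product names or sequences were at hand.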

Additional observations from a re-analysis of the deposited data

How the results depend on the processing

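No paired analysis was possible because water and yeast have 1 library each, and so no replicate could be left out; depth limits counting error only. The count of 107 genes was 63 with a pseudocount of 5, of which 55 were among the 107, and the other 12 settings gave 83 to 156. It was 156 after rescaling to a median ratio of 0, of which 92 were among the 107. Higher genes made up 43.2% of genes past 2-fold with a pseudocount of 0.1 and 84.4% with 5. The share of strongly higher genes standing alone, 44.0%, fell to 34.2% when a neighbour counted as higher at a ratio of 0.5. Over the settings tried for each, the median ratio ran from 2.32 to 2.42, the share near 0 from 0.885% to 3% and the share with 1 exon from 22.4% to 30.1%. With a pseudocount of 5, 55 of the 107 kept a ratio of 2 or more, as did 99 by the deposited values of the authors. There too 1 was added, which lowers the ratio of genes with small deposited values. LOC104878605, at 3.38 and 19.9 FPKM, was deposited at 0.643 and 3.79, and its ratio went from 2.26 to 1.54. By the deposited values LOC100853047 turned to -0.26, and the cause was not tested. The reference gene order and the demand for a measured gene on both sides were added after the data were seen.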

Other observations

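Among the 36 measured genes at least 4-fold higher that stayed under 10 FPKM in the treated library, LOC100257314 was the nearest to the limit, at 0.296 and 9.96 FPKM. In the order of the reference assembly, 100 of 235 matched strongly higher genes stood alone (42.6%), and 4 of these had a higher neighbour in the files. The stretch of 21 higher genes on chromosome 18 of that assembly lies on 6 separate sequences in the files.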
